A study of Mus musculus with 25 samples.

Results

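The troponin gene family was examined for Spin1 and trimethylated lysine 4 of histone H3 (H3K4me3) in mouse myoblasts. The 8 members, Tnnc1, Tnnc2, Tnni1, Tnni2, Tnni3, Tnnt1, Tnnt2 and Tnnt3, were chosen as the family's genes and not for any measured value. Earlier results of these data were known at the time of this choice. All 8 have a curated RefSeq transcript on GRCm38 (mm10), among 21000 protein-coding genes and 26182 genes in all. Of the 8 genes, 7 carried a Spin1 peak and an H3K4me3 peak at the promoter, and Tnni3 carried neither. Over all protein-coding genes 56.7% carried both and 32.0% neither. By peak center alone both were present at 3 of the 8 members and 45.2% of all, and Spin1 at 6 members and 52.7% of all.

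The study asks how Spin1, a protein that binds H3K4me3 and thereby reads this histone mark, acts in skeletal muscle. It holds 25 samples, of which the 22 RNA-seq samples of fetal and juvenile muscle and the input library were not analysed here. The 2 samples used are ChIP-seq libraries of primary myoblasts, 1 made with an antibody against Spin1 and 1 with an antibody against H3K4me3. The cells came from limb muscle of C57BL/6 mice (C57BL/6 N in the paper) 10 days after birth. They were purified by preplating and were grown below confluence. The antibody label of the H3K4me3 sample reads anti-H3K4me, while its title gives the trimethylated form. With 1 library per antibody there is no replicate, so counts and positions are given without a test.

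Each deposited peak has a position and a score, which grows with the significance of the peak as −log10 p × 10. Scores pile up at a ceiling of about 3100, reached by 30.9% of 17106 peaks for Spin1 and 45.2% of 30763 for H3K4me3, so values at 3100 are not ranked. The reads behind a peak are unknown, and a peak below the limit of the peak caller leaves no trace. A gene counted as occupied if at least 1 bp of a peak fell within 1 kb of the transcription start site (TSS) of any of its curated transcripts, on either side, and this stretch is called the promoter window. A peak shows where the protein or the mark was found on DNA and does not measure the transcript.

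Troponin is the calcium switch of striated muscle and sits on the thin filament with tropomyosin and actin. Troponin C binds calcium, troponin I holds the actin-myosin interaction in check at rest, and troponin T anchors the complex to tropomyosin. Each subunit has isoforms that mark fast skeletal, slow skeletal or cardiac muscle. The genes of troponin I and troponin T lie in pairs, some with another gene in between. Developing skeletal muscle also uses cardiac troponin T.

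The cell label was examined with marker genes. Both peaks were present at the promoters of all 7 myoblast markers, Myod1, Myf5, Pax7, Des, Cdh15, Itga7 and Chrna1, and at 3 of 4 genes of muscle differentiation, Myog, Mymk and Mymx. At Ckm, the muscle creatine kinase gene, only H3K4me3 was found. None of the 3 markers each of endothelial cells, blood cells and neurons had a Spin1 peak, but H3K4me3 was present at all 3 neuron markers, with scores of 218 at Snap25, 445 at Syp and 1558 at Rbfox3. It was also present at the endothelial gene Cdh5 and the macrophage gene Cd68, with scores of 246 and 51.8. Of 5 cardiomyocyte markers, Tbx5 alone had both peaks, with a Spin1 score of 77.6, and H3K4me3 alone was present at Nkx2-5, Gata4 and Tbx20. Of 4 fibroblast markers, Pdgfra and Col1a1 had both peaks, with Spin1 scores of 2393 and 1275, while Thy1 and Tcf21 had H3K4me3 alone. A share of fibroblasts in the culture, and its part in the peaks described here, was not tested.

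Spin1 was found at 7 of the 8 troponin promoters, and at 11911 of 21000 protein-coding genes (56.7%, 95% Wilson interval 56.0 to 57.4%). H3K4me3 was found at the same 7, and at 14281 protein-coding genes (68.0%, 67.4 to 68.6%). Both peaks were present at 7 troponin genes and at 56.7% of protein-coding genes (56.0 to 57.3%). When only peaks with their center in the window counted, both were present at 3 of the 8 troponin genes and 45.2% of protein-coding genes. By this count of both peaks the family no longer stood above all genes. By peak center Spin1 was present at 6 of the 8 and 52.7% of protein-coding genes, and H3K4me3 at 3 and 56.3%. With the top 50% of peaks by score both were present at 5 troponin genes and 42.9% of protein-coding genes. Neither was present at Tnni3, as at 32.0% of protein-coding genes (31.3 to 32.6%). These intervals cover counting error only. A family of 8 genes is small, and its share was not tested against that of all genes. The map of peaks around the start sites shows that the marks differ in extent and place between members.

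**Figure D1:**
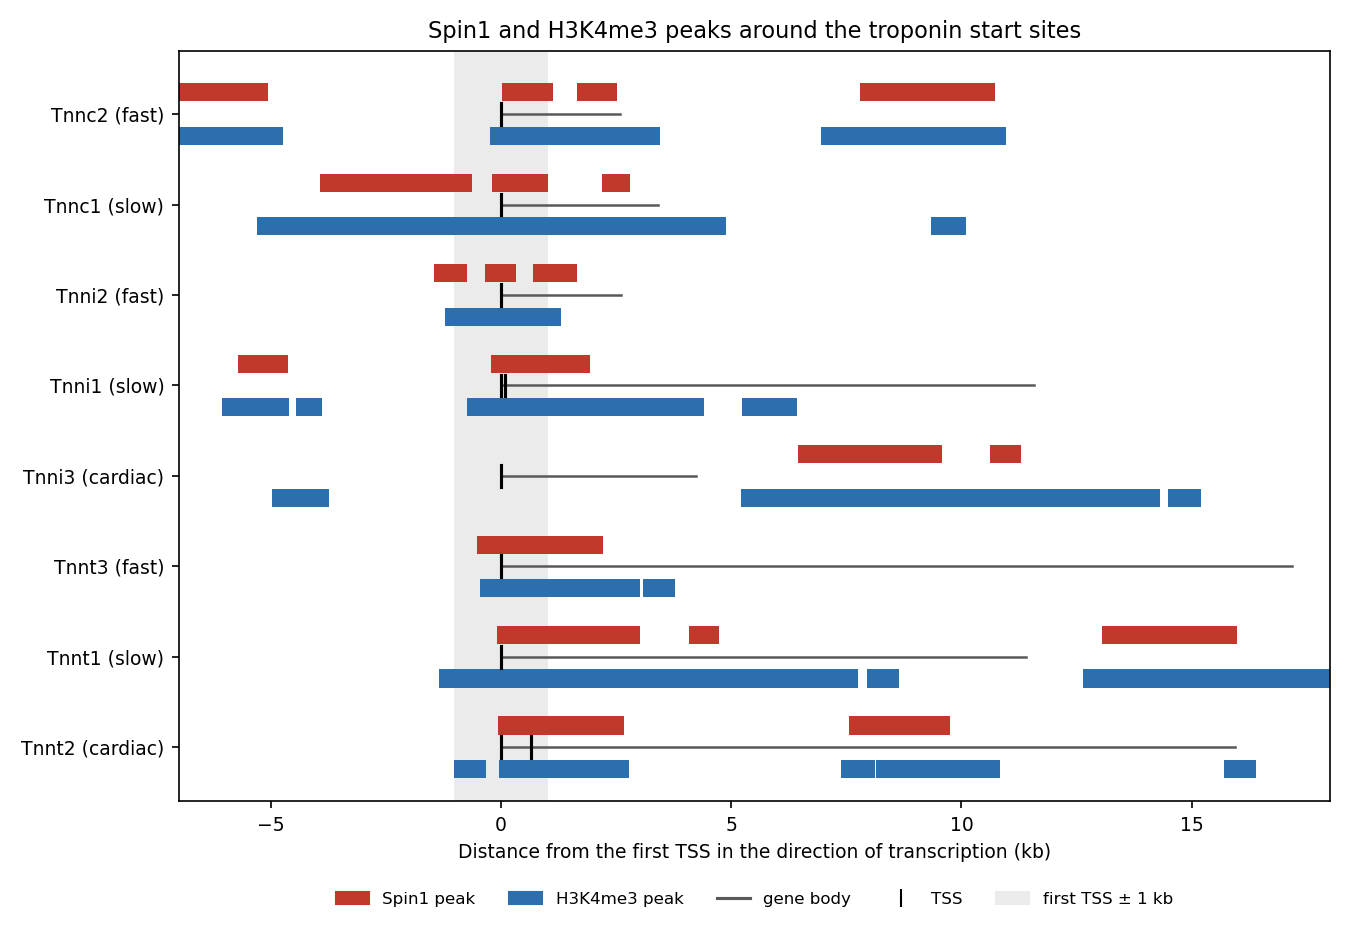
Spin1 peaks (red) and H3K4me3 peaks (blue) around the first TSS of each troponin gene, in kb along the direction of transcription, with the gene body as a line, each curated TSS as a tick and the window of the first TSS±1 kb shaded. Tnni3 has no peak from 3748 bp upstream of its TSS to the end of its body, while in Tnnc1 and Tnnc2 the H3K4me3 peak covers the whole gene.

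RefSeq promoter sequences, 250 bases before to 50 bases after a TSS, were matched for 6 of the 8 members and give 8 promoters. Tnni2 and Tnnt3 were not matched. Shown are the 250 bases before the TSS of 4 members that carry both peaks, since at each of them the Spin1 peak over the TSS begins within these bases. They are written 5′ to 3′ on the strand of the gene, from GRCm38.p6. The stretches are chr14:31208062-31208311 (plus strand) for Tnnc1, chr1:135799171-135799420 (plus strand) for Tnni1, chr7:4515976-4516225 (minus strand) for Tnnt1 and chr1:135836084-135836333 (plus strand) for Tnnt2, the latter before the first of its TSSs, as for Tnni1. Capitals mark matches on either strand to CANNTG (the E-box, bound by factors such as Myod1), CATTCC (the core of the MCAT element) and TATAAA (a form of the TATA box).
Tnnc1: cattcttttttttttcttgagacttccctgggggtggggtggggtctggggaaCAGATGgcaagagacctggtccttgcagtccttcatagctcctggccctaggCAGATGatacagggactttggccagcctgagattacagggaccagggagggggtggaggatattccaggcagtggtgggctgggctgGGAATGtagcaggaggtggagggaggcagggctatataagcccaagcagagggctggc
Tnni1: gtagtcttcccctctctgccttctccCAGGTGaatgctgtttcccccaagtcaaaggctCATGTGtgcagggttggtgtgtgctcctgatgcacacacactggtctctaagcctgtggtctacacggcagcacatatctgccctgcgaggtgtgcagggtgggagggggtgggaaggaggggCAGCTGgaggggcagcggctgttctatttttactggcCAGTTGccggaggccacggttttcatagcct
Tnnt1: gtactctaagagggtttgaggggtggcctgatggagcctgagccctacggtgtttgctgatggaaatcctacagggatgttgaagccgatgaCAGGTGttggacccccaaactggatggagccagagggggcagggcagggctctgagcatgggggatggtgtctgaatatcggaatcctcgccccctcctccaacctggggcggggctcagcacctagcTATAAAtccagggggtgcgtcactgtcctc
Tnnt2: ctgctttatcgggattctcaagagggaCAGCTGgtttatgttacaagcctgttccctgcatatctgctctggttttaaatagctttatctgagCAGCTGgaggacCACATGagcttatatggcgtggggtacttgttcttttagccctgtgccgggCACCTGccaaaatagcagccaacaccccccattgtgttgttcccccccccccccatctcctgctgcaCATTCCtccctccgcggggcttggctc

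An E-box match was present in all 8 matched promoters, the 2 TSSs of Tnni1 and of Tnnt2 counted separately, and in 72.3% of the 32851 promoters of the same length. The CAGCTG form of the E-box, which overlaps the CANNTG search, was found at Tnni1 and at the first TSS of Tnnt2, and in 16.3% of all promoters. The first TSS of Tnnt2 had 5 E-box matches and the first TSS of Tnni1 had 4, a number reached by 6.49% of promoters. CATTCC was present at Tnnc1 and Tnnt2 (14.7% of all promoters), and TATAAA was present at Tnnt1, 30 bases before the TSS (13.6%). Only the exact letters TATAAA were searched, so other forms of the TATA box were not counted. No match was found to the MEF2 box (3.19% of all promoters) or the CArG box (1.63%). A match describes letters and not bound protein.

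All 8 matched troponin promoters were poor in CpG dinucleotides. The ratio of observed to expected CpG ranged from 0.0432 at Tnnc1 and 0.0640 at the second TSS of Tnnt2 to 0.239 at the second TSS of Tnni1, with a median of 0.384 over all promoters. The GC content was not low, since 7 of the 8 lay above the median of 52.7%, and the remaining one, the second TSS of Tnnt2, was at 45.7%. Peaks were rare at protein-coding promoters of this kind. Among the 5284 promoters with a ratio under 0.25, Spin1 was found at TSS±1 kb of 389 (7.36%), H3K4me3 at 765 (14.5%) and both at 383 (7.25%). Among the 15204 promoters at or over 0.25, both were found at 11016 (72.5%). Of the 8 troponin promoters, all under 0.25, 7 had both peaks, and the promoter without was that of Tnni3, with a ratio of 0.236. By gene this is 5 of 6, since the promoters of Tnni1 lie under the same peaks, as do those of Tnnt2, and Tnni2 and Tnnt3 are not among them. The limit of 0.25 was chosen after the members' values were seen, and with limits of 0.2 and 0.4 both peaks were found at 5.87% and 12.5% of the promoters below.

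**Figure D2:**
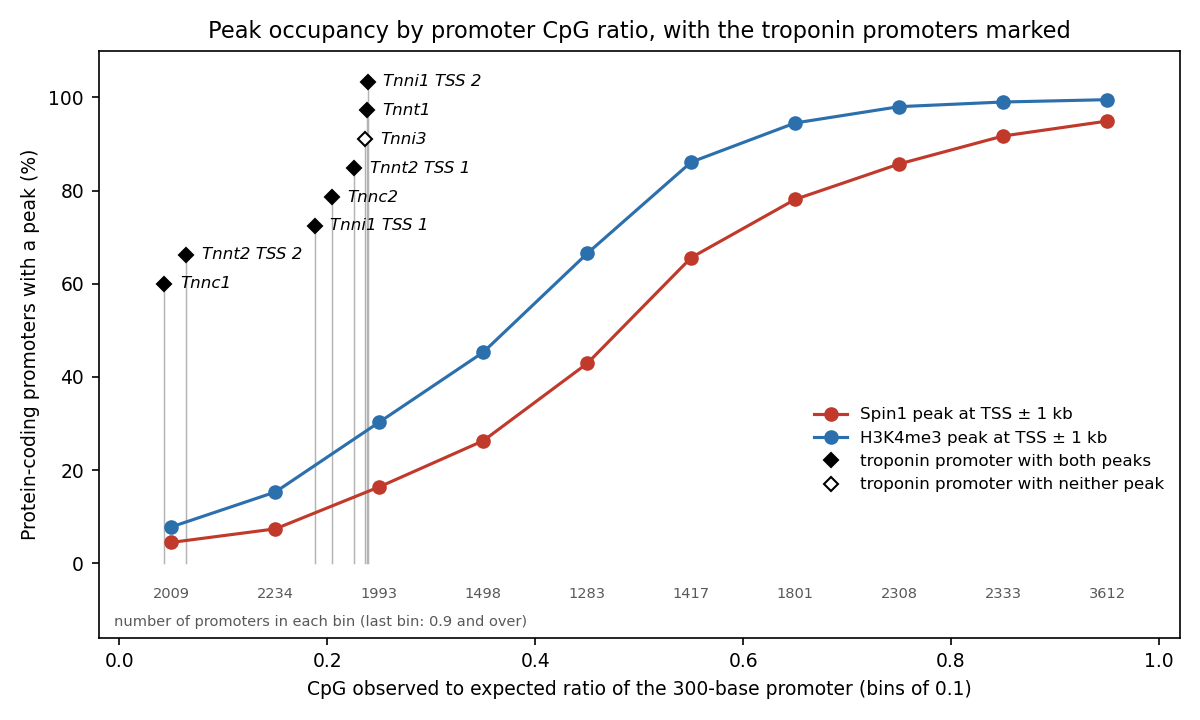
Share of protein-coding promoters with a Spin1 peak (red) or an H3K4me3 peak (blue) at TSS±1 kb, in percent, by CpG observed to expected ratio of the 300-base promoter in bins of 0.1, with the number of promoters below each bin. Diamonds mark the ratios of the 8 troponin promoters, filled with both peaks and open with neither, and their height carries no value; the Spin1 share rises from 4.48% in the lowest bin to 94.9% in the highest.

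Troponin C is encoded by Tnnc1 in slow skeletal and cardiac muscle and by Tnnc2 in fast skeletal muscle. Tnnc1 (chr14:31208312-31211729, plus strand) has 6 exons and lies head to head with Nisch, which encodes the imidazoline receptor nischarin. A peak of H3K4me3 of 10176 bp (chr14:31203012-31213187, score 3100) ran over the Nisch promoter and the whole of Tnnc1. Only 1.12% of protein-coding genes with H3K4me3 at the promoter had a peak of 10 kb or more. Under this broad peak lay 3 separate Spin1 peaks. The strongest, with a score of 3100 (chr14:31204378-31207687), was nearest to the Nisch TSS and touched the Tnnc1 window from upstream, ending 625 bp before the Tnnc1 TSS. The peak over the Tnnc1 TSS itself (chr14:31208106-31209323) had a score of 397, and another, over exon 4 and centred in intron 4 (chr14:31210496-31211113), a score of 141. The Spin1 score of Tnnc1 thus depends on which peak is counted.

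Tnnc2 (chr2:164777161-164779734, minus strand) was covered by both marks from the 5′ to the 3′ part. Its H3K4me3 peak (chr2:164776281-164779966, score 3093) covered all 6 exons and began 232 bp upstream of the TSS. The Spin1 peak (chr2:164778611-164779716, score 243) began 18 bp downstream of the TSS, so that the TSS itself was outside, which was the case at no other occupied member. Over all protein-coding genes with Spin1 at the promoter, 96.6% had a TSS inside a peak. A separate Spin1 peak of 882 bp and a score of 142 covered the 3′ part of the gene (chr2:164777209-164778090). Together the Spin1 peaks covered 77.2% of the Tnnc2 body, the highest share of the family, while the body of Tnnc1 was covered to 47.7%. In both genes H3K4me3 covered 100% of the body.

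Troponin I, the inhibitory subunit, is encoded by Tnni2 in fast, Tnni1 in slow and Tnni3 in cardiac muscle. Tnni2 (chr7:142441816-142444410, plus strand) had the weakest peaks among the occupied members. Its Spin1 signal was split into 3 peaks with scores of 148, 102 and 166, from 1450 bp upstream of the TSS to 1655 bp downstream. Of the 11911 protein-coding genes with Spin1 at the promoter, 51 (0.428%) had 3 or more peaks. The H3K4me3 peak (chr7:142440605-142443127) had a score of 875, the lowest of the family, yet it covered 100% of the promoter window. The middle Spin1 peak (chr7:142441458-142442145) held the TSS, and the one downstream (chr7:142442502-142443471) reached exon 5.

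Tnni1 (chr1:135799421-135810989, plus strand) has TSSs 90 bp apart. The Spin1 peak (chr1:135799210-135801355, score 1410) lay over both TSSs and ended in intron 2, inside an H3K4me3 peak of 5149 bp (chr1:135798670-135803818, score 3100). Upstream of the curated TSSs of Tnni1 a further pair of peaks was found, outside any curated transcript but inside the full RefSeq record of the gene (chr1:135783033-135810989). A weak H3K4me3 peak (chr1:135782972-135783699, score 68.2) lay over the start of that record. A Spin1 peak of 1085 bp (chr1:135793710-135794794, score 311), centred 5169 bp before the TSS, lay wholly within an H3K4me3 peak of 1460 bp (chr1:135793359-135794818, score 818). The central 200 bases of this Spin1 peak, chr1:135794153-135794352 on the plus strand of GRCm38.p6, are shown because the element is far from a curated start site, with the match to CATTCC in capitals.
Tnni1 upstream peak: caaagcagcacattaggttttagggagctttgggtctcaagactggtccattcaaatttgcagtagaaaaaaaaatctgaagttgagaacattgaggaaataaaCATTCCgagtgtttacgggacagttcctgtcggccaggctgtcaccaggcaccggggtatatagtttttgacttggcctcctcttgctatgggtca

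These bases held no CANNTG match, while 52.5% of the 17106 Spin1 peaks held one in their central 200 bases, and 9.07% held CATTCC. The GC content was 45.0%, and the median over all Spin1 peaks was 58.0%. What the element acts on was not tested.

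Tnni3 (chr7:4518305-4522528, minus strand), which encodes the troponin I of the adult heart, had no Spin1 and no H3K4me3 peak at its promoter or in its body. The nearest H3K4me3 peak on the upstream side (chr7:4526276-4527509, score 805) lay 3748 bp from the TSS, within Dnaaf3, a gene for the assembly of dynein arms, and had no Spin1. On the downstream side, the H3K4me3 peak of Tnnt1 stopped 991 bp from the end of Tnni3, and the Spin1 peak of Tnnt1 lay 6455 bp from the Tnni3 TSS. The marks of the slow gene Tnnt1 thus reached into the space between these neighbours and not into Tnni3.

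Troponin T, which binds tropomyosin, is encoded by Tnnt3 in fast, Tnnt1 in slow and Tnnt2 in cardiac muscle. The strongest Spin1 peaks over a troponin TSS were those of the 3 troponin T genes, with scores of 2204 at Tnnt3, 1926 at Tnnt1 and 1924 at Tnnt2. Tnnt3 (chr7:142498836-142516009, plus strand) has 17 curated transcripts that share 1 TSS. Its Spin1 peak (chr7:142498307-142501042) began 529 bp upstream of the TSS, farther than its H3K4me3 peak (chr7:142498383-142501850, score 3100), which began 453 bp upstream. Spin1 covered 76.5% and H3K4me3 72.7% of the Tnnt3 window, and Tnnt3 was the only member with more of the window under Spin1. Its body of 17174 bp was covered to 12.9% by Spin1 and 21.6% by H3K4me3. The body of Tnnt2, of 15935 bp, was covered to 30.5% and 40.4%.

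Tnnt1 (chr7:4504570-4515975, minus strand) carried a broad H3K4me3 peak of 9102 bp (chr7:4508213-4517314, score 3100), from 1339 bp upstream of the TSS to exon 11 of 14. It was wider than the widest promoter peak of 98.5% of protein-coding genes with H3K4me3. The Spin1 peak of 3113 bp (chr7:4512961-4516073) began 98 bp upstream of the TSS and reached exon 5, and a weak one of 674 bp lay in intron 6 (chr7:4511231-4511904, score 106). Here the broad mark and the narrower protein shared the 5′ part of the gene.

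Tnnt2 (chr1:135836334-135852268, plus strand) has TSSs 655 bp apart, the second of them in intron 1. The Spin1 peak (chr1:135836265-135838995) and the stronger of its H3K4me3 peaks (chr1:135836294-135839110, score 3100) coincided almost to their edges and held both TSSs. A small H3K4me3 peak with a score of 113 lay upstream (chr1:135835307-135835996). Of the Spin1 peaks inside a troponin gene but outside the promoter window, the one in Tnnt2 had the highest score, at 826. Those in Tnnc1, Tnnc2 and Tnnt1 had scores of 141, 142 and 106. The median over all Spin1 peaks was 1239, so the Tnnt2 peak was high only beside these. This Tnnt2 peak measured 2201 bp (chr1:135843895-135846095), ran from intron 3 to exon 5 of 15, and was covered to 98.9% by H3K4me3 peaks with scores of 73.6 and 1297. Of the genes counted as cardiac alone, Tnnt2 thus had both marks and Tnni3 neither.

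By class, both peaks were present at 3 of 3 fast genes, 3 of 3 slow genes and 1 of 2 cardiac genes, and at 56.7% of protein-coding genes. With the top 50% of peaks by score (42.9% of protein-coding genes) the fast count was 1 and the slow count 3, but 2 slow genes were left when each of these peaks was also given to its nearest TSS alone, since Tnnc1 was then lost. By peak center (45.2% of protein-coding genes) both counts were 1. Tnnc1 was counted as slow, and with Tnnc1 as a cardiac gene too, 2 of 3 cardiac genes had both peaks. The windows of the fast genes were covered by Spin1 to 49.1% at Tnnc2, 63.0% at Tnni2 and 76.5% at Tnnt3. Those of the slow genes were covered to 54.9% at Tnnt1, 62.3% at Tnni1 and 79.1% at Tnnc1, where the Nisch peak contributed. These ranges overlap. H3K4me3 covered 61.6 to 100% of the fast windows, with a median of 72.7%, and 88.1 to 100% of the slow windows, with a median of 100%. Tnnt2 was at 64.9% for Spin1 and 88.8% for H3K4me3, within the ranges of both the slow and the fast genes. Over all 8 members the median coverage was 62.6% for Spin1 and 88.5% for H3K4me3, and over all protein-coding genes it was 46.7% and 81.7%. Among occupied protein-coding genes alone the medians were higher, at 81.1% and 96.8%.

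**Figure D3:**
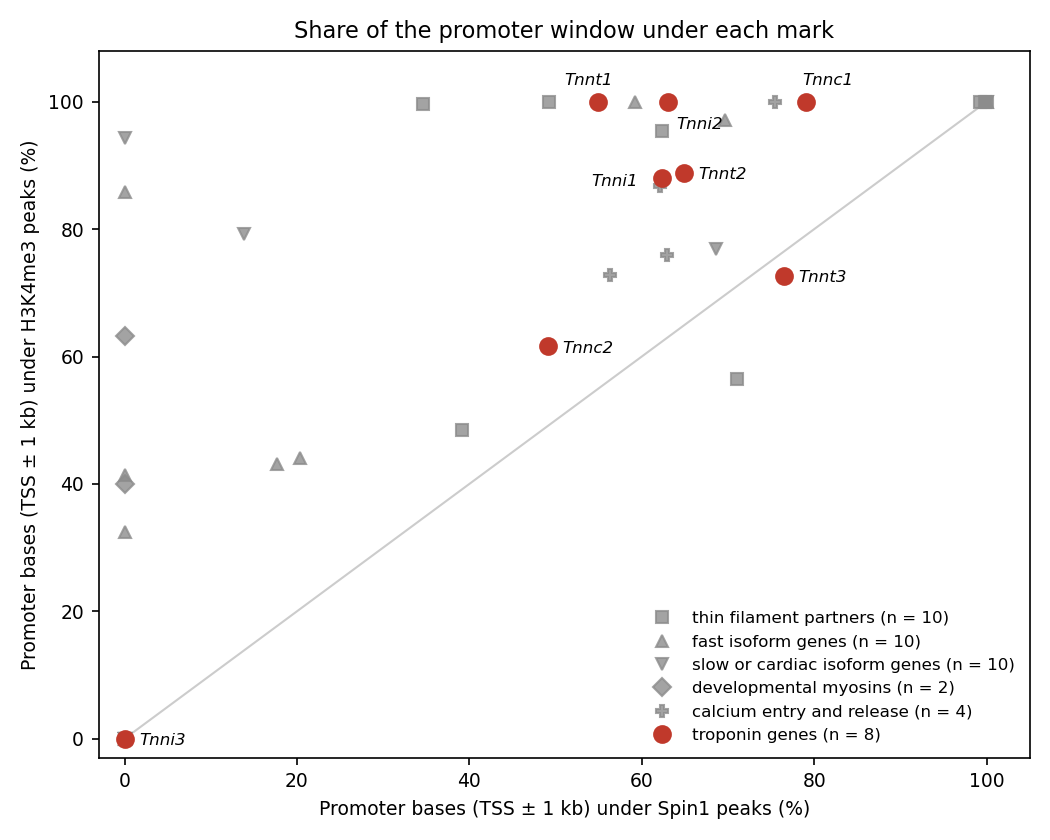
Share of the promoter bases, TSS±1 kb of all curated TSSs joined, under Spin1 peaks (horizontal axis, %) and H3K4me3 peaks (vertical axis, %) for the 8 troponin genes (red) and 36 other sarcomere and calcium genes (gray, shape by list), with a line where both are equal. Of the troponin genes only Tnnt3 lies below the line, and Tnni3 lies at 0 on both axes with other unoccupied genes behind it.

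Peak scores of Spin1 were compared after each peak was given only to the gene whose TSS lies nearest to the peak center. In this count, chosen after the Nisch peak had been seen, 10580 protein-coding genes had a Spin1 peak of their own, with a median score of 2778, and 46.1% of them were at the ceiling. All 7 occupied troponin genes were below that median. Their own median was 1410, and their scores ranged from 166 at Tnni2, higher than at 4.68% of these genes, to 2204 at Tnnt3, higher than at 42.2%. The order of the members was Tnnt3, Tnnt1, Tnnt2, Tnni1, Tnnc1, Tnnc2 and Tnni2, with Tnnt1 and Tnnt2 nearly equal, and without replicates the spread of a score is unknown. For H3K4me3, 5 of the 7 were at the ceiling of 3100, as were 88.6% of the 12744 protein-coding genes with a peak of their own. The ceiling is also the median over these genes, and Tnnc2 was just below it.

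The Spin1 peaks of the troponin genes also began closer to the TSS on the upstream side. The median upstream edge of the 7 peaks lay 206 bp before the nearest TSS, while the median over all 10580 genes lay 718 bp before it. The median downstream edge was at 1844 bp for the troponin genes and at 1410 bp for all. The edges ranged from 724 bp upstream at Tnnt2, as counted from its second TSS, to 686 bp downstream at Tnni2, where the strongest of the 3 peaks was used. The Tnni2 peak that held the TSS began 358 bp upstream, and the Tnnt2 peak began 69 bp before the first TSS. The median of the 7 edges depends on these choices. At H3K4me3 peaks the upstream difference was smaller, with median edges at 841 bp for the 7 troponin genes and 1009 bp for all. The downstream difference was larger, with median H3K4me3 edges at 3453 bp for the troponin genes and 1986 bp for all.

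**Figure D4:**
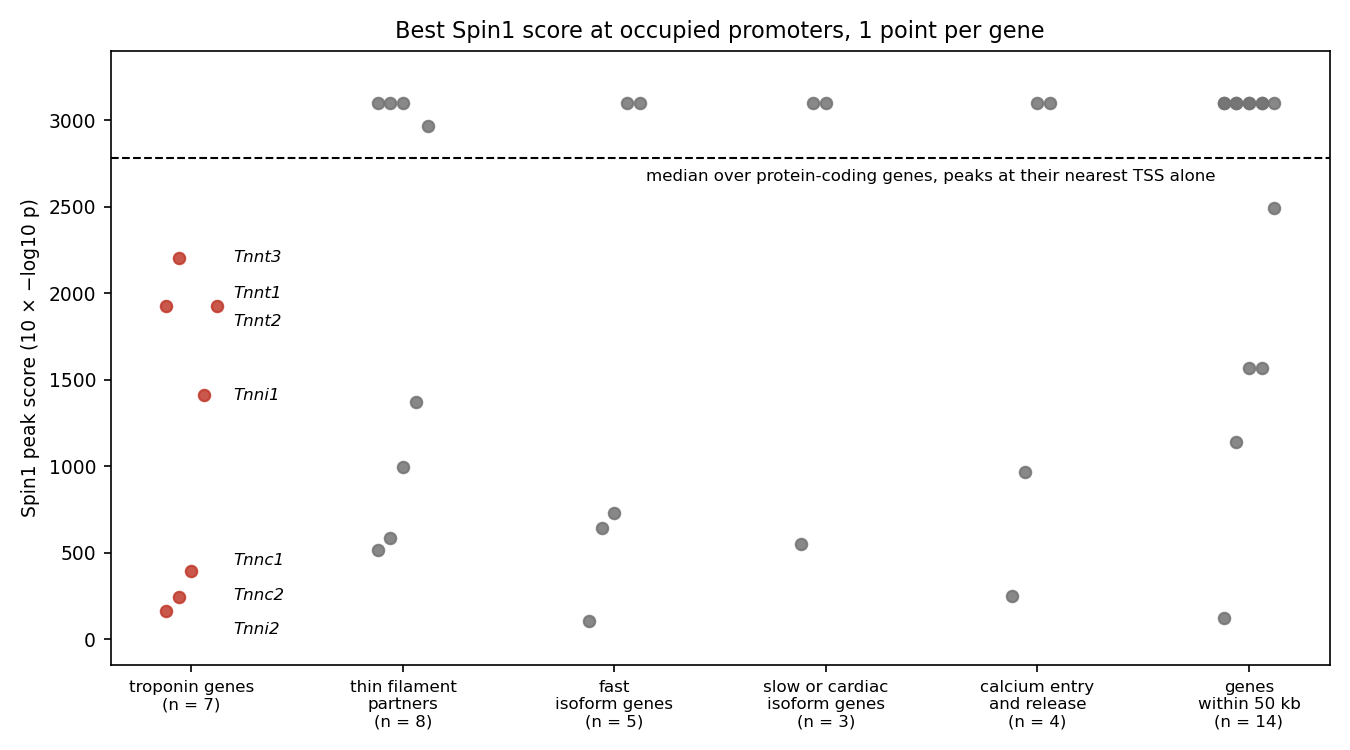
Best Spin1 score at each occupied promoter (−log10 p × 10, ceiling at about 3100), 1 point per gene, for the troponin genes (red, the peak nearest to their own TSS), the occupied genes of 4 sarcomere and calcium lists, and the occupied genes within 50 kb of a troponin gene (gray, any peak at the promoter). All 7 troponin genes lie below the dashed line, the median of 2778 over protein-coding genes with peaks at their nearest TSS alone, and 9 of the 14 genes within 50 kb are at the ceiling.

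Troponin I and troponin T genes stand in 3 pairs, each with both genes on the same strand and the troponin I gene upstream. The fast pair Tnni2-Tnnt3 spans 74194 bp, and the 54425 bp between its genes hold Lsp1, which encodes an actin-binding protein of leukocytes. Tnni1-Tnnt2, a slow and a cardiac gene, spans 52848 bp with Lad1 in between, and Tnni3-Tnnt1, a cardiac and a slow gene, spans 17959 bp with 2329 bp and no gene in between. No promoter peak of either mark was shared by the genes of a pair. In Tnni2-Tnnt3 and Tnni1-Tnnt2 each gene had peaks of its own, while in Tnni3-Tnnt1 only Tnnt1 had any.

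Spin1 peaks covered 13.7% of the Tnni2-Tnnt3 span, 13.0% of Tnni1-Tnnt2 and 21.1% of Tnni3-Tnnt1. H3K4me3 covered 24.9%, 27.1% and 54.6%, so the compact Tnni3-Tnnt1 locus was the most covered by both marks although 1 of its genes had no peak. With the top 50% of peaks by score, H3K4me3 covered 16.7% of Tnni1-Tnnt2, below the 19.8% of Tnni2-Tnnt3, and 50.7% of Tnni3-Tnnt1. The spaces between the genes differed. H3K4me3 covered 24.8% of this space at Tnni2-Tnnt3, 9.15% at Tnni1-Tnnt2 and 57.5% at Tnni3-Tnnt1. Spin1 covered 4.21% of it at Tnni3-Tnnt1. At Tnni2-Tnnt3, Spin1 covered 12.3% of this space, all but the edge of it through a peak of 6165 bp at an Lsp1 promoter (chr7:142471366-142477530, score 3100). At Tnni1-Tnnt2, Spin1 covered 0.272%, the upstream edge of the Tnnt2 peak. The Lad1 promoter there had H3K4me3 with a score of 3100 (chr1:135818079-135819668) and no Spin1. Lad1 encodes ladinin, a protein of epithelial basement membranes.

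**Figure D5:**
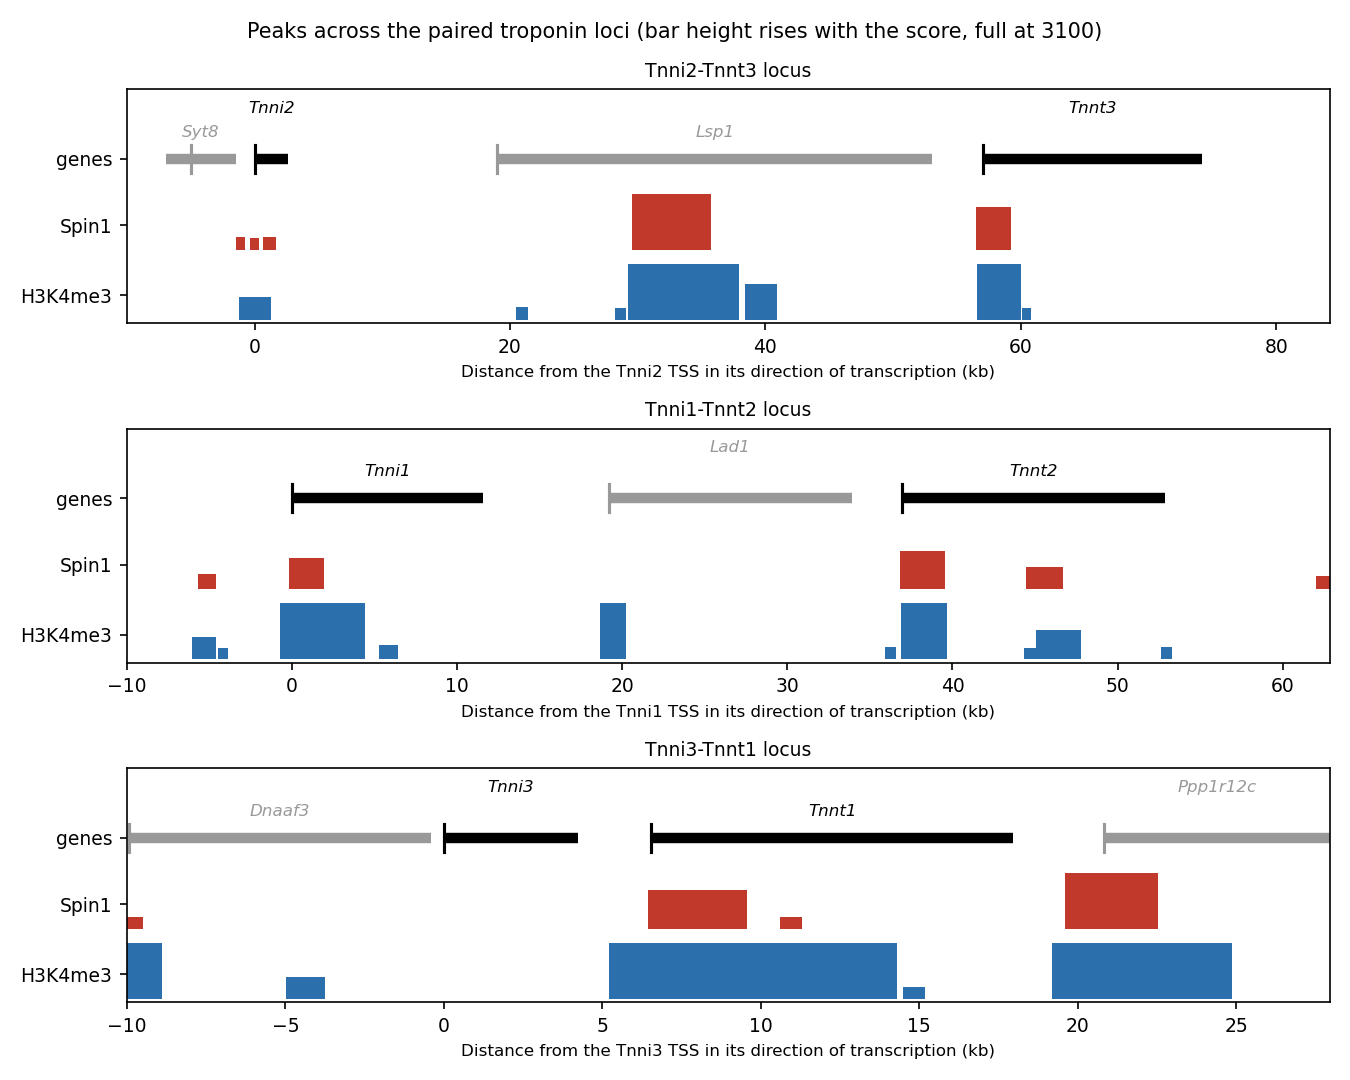
Genes (troponin genes black, others gray, with the TSS as a tick), Spin1 peaks (red) and H3K4me3 peaks (blue) across the 3 paired loci with 10 kb on each side, in kb from the TSS of the troponin I gene. Bar height rises with the score and is full at 3100; Tnni3 is bare of both marks, and Lad1 has H3K4me3 without Spin1.

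Within 50 kb of the troponin genes lay 31 Spin1 and 43 H3K4me3 peaks. Of the Spin1 peaks, 10 overlapped a troponin promoter, 11 only promoters of other genes and 10 no promoter. The median score was 904 at the troponin promoters, 3100 at the other promoters and 162 away from promoters. Without the Nisch peak that touches the Tnnc1 window, the median at the troponin promoters was 397. H3K4me3 overlapped 28 of the 31 Spin1 peaks, and Spin1 overlapped 22 of the 43 H3K4me3 peaks. The overlap over all 17106 Spin1 and 30763 H3K4me3 peaks is not given here, so these counts are not read as particular to the troponin genes. The 3 Spin1 peaks without H3K4me3 had scores of 168 (chr1:135861420-135862437, beyond the 3′ end of Tnnt2), 102 (chr7:142430380-142431067, upstream of Tnni2) and 157 (chr7:142550272-142551002, in the noncoding gene Nctc1).

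A peak touched the promoters of 19 neighbouring genes, and neighbours without a peak at the promoter were not counted. Both marks were present at 14, among them Ube2c and Snx21 on the sides of Tnnc2, Ppp1r12c next to Tnnt1, Bap1 near Tnnc1 and Phlda3 near Tnni1, each with a Spin1 score of 3100. The weakest was Dnaaf3, with a Spin1 score of 126 (chr7:4532006-4532718) at an H3K4me3 score of 3100. H3K4me3 alone was present at 5, D630041G03Rik, Eps8l1, Lad1, Sema3g and Syt5. Over all protein-coding genes 11903 had both marks, 2378 H3K4me3 alone and 8 Spin1 alone. Of the 14 neighbours of troponin genes with both marks, 9 had a Spin1 score at the ceiling, where 48.9% of all occupied protein-coding genes stood. Bap1 and Phf7 share 1 of these peaks, and that of Nisch is the one that touches the Tnnc1 window.

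Other genes of the sarcomere and of calcium handling were taken from lists, 36 genes in all, of which 20 had both peaks, 6 H3K4me3 alone and 10 neither. Both were present at 56.7% of protein-coding genes, close to the share in these lists. With the top 50% of peaks by score 11 of the 36 had both, and by peak center 9, beside 42.9% and 45.2% of protein-coding genes. Of 10 partners of troponin in the thin filament, 8 had both peaks. Spin1 scores were at 3100 for the tropomyosin genes Tpm1, Tpm2 and Tpm3, 2968 for Lmod3 and 1369 for Lmod2 (leiomodins, which promote actin assembly), 994 for Acta1 and 586 for Actc1 (skeletal and cardiac α-actin), and 516 for Tmod1, a cap of the actin filament end. Neb, the gene of the thin filament ruler nebulin, and Tmod4, another capping protein, had neither peak. The tropomyosin genes were thus at the ceiling, where scores are not ranked. Acta1 and Actc1 lay within the range of 166 to 2204 of the troponin genes counted by their own peaks. List genes were counted by any promoter peak, by which Tnnc1 was at 3100 too.

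Among 10 genes of fast fibers 5 had both peaks. H3K4me3 alone was found at Myh1, Mybpc2 and Pvalb, and neither at the myosin genes Myh2 and Myh4. Among 10 genes of slow or cardiac muscle 3 had both, Mybpc1 (slow myosin-binding protein C) had H3K4me3 alone, and Myh6, Myh7, Myl2, Myl3, Myl7 and Mybpc3 had neither. The developmental myosin genes Myh3 and Myh8 had H3K4me3 alone, with scores of 3100 and 97.5. All 4 genes of calcium entry and release, Ryr1, Cacna1s, Stac3 and Jph2, had both peaks. Of the 10 slow or cardiac isoform genes 6 thus had neither peak, beside 32.0% of protein-coding genes, and the difference was not tested. This list holds slow and cardiac genes together. Tnni3 also had neither peak, and the slow troponin genes had both.

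The CpG ratio of these list genes was examined in the same way. Promoters were matched for 31 of the 36 genes, and some have more than 1. Of their 36 promoters, 16 had a ratio under 0.25 and 4 of those had both peaks. Of the 20 at or over 0.25, 13 had both. The corresponding count for the troponin promoters under 0.25 was 7 of 8, and the difference between these small groups was not tested.

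For each member, the most alike of the 36 list genes was the one with the smallest summed difference over 4 values, the percent of promoter window and of gene body under Spin1 and under H3K4me3. Tnnt3 was closest to Myl4, an atrial and embryonic myosin light chain gene, with a sum of 13.7 percentage points. Tnni1 and Tnnt2 were both closest to Stac3, a part of the calcium release machinery, with 14.0 and 18.9, and Tnnc1 to Mylpf, a fast myosin light chain gene, with 19.5. The other occupied members had no close counterpart, with 52.5 between Tnnt1 and Actc1, 54.5 between Tnni2 and Tpm2, and 59.0 between Tnnc2 and Acta1. Tnni3 was equal to 8 list genes without any peak, of which Mybpc3 is first by name.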

How the data were processed

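The peak lists of the Spin1 and H3K4me3 samples were used as deposited. By the submitters' processing notes, reads were aligned to mm10 with Bowtie2 and peaks were called with MACS 1.4.2 against the input library, with a false discovery rate limit of 1%. The score in the lists was made by the authors with MACS before deposit and was not transformed here. Read counts, depth, duplicates and alignment rates are not given. Positions were turned from BED to 1-based coordinates.

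Genes, transcripts and sequences came from RefSeq GRCm38.p6, annotation release 108.20200622, with 45756 curated transcripts. A promoter was TSS±1 kb of each curated transcript, a gene body the span of the curated transcripts, and 1 shared bp was an overlap. In the text, the score of a gene at its promoter is that of its best overlapping peak, unless each peak was given to the gene with the nearest TSS. Percentages of genes have 95% Wilson intervals. The CpG ratio is the observed number of CpG over that given by the C and G content. Motifs were searched on both strands of promoters from 250 bases before to 50 bases after the TSS.

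The members were named by gene family. The members and the lists of other genes were chosen with earlier results of these data known, and list genes named in the text are those that carry or lack a peak as stated. No test was made because each antibody has 1 library. The RNA-seq and input samples were not analysed here. The scripts were tested on simulated data with known overlaps. Other windows, score limits, flanks and assignments of peaks were tried, and the values of those that moved a result are given. Python 3.11.15, numpy 2.4.6, scipy 1.17.1 and matplotlib 3.10.9 were used.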

Additional observations from a re-analysis of the deposited data

How the results depend on the processing

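A count within 1.5 times the reported one, or a percentage within its 95% Wilson interval, was called the same. For the coverage of the paired loci this interval was taken over single bases, which are not independent. It is therefore too narrow there, and small changes of coverage were called moved. Of 118 alternatives to 19 results, 68 were the same by this rule (44 equal, 17 lower, 7 higher) and 50 moved the result. With only peaks whose center lay in the window, H3K4me3 and both peaks were found at 3 troponin genes (Tnnc2, Tnni1, Tnnt1 and Tnnt3 were lost), 1 fast gene, 1 slow gene and 9 other sarcomere and calcium genes. The centers of the lost H3K4me3 peaks lay over 1 kb from the TSS. With the top 50% of peaks by score, both were found at 5 troponin genes, 1 of them fast (Tnnc2 and Tnni2 were lost), and 11 other genes. Added after seeing the data, each peak at its nearest TSS alone left 7 troponin genes with Spin1, and with the top 50% it left 4 with Spin1 and 4 with both (Tnnc1, Tnnc2 and Tnni2 were lost), of which 1 was fast and 2 were slow. Also added then, Tnnc1 as a cardiac gene too gave 2 cardiac genes with both. The limits of CpG ratio were also added then. The percent of protein-coding genes with Spin1 was 55.8 with 1 kb upstream to 0.1 kb downstream, 55.8 with 1 TSS per gene, 42.9 with the top 50%, 52.7 by center and 50.7 among all genes. For H3K4me3 it was 68.7 with ±2 kb, 67.2 with 1 TSS, 67.3 with scores of 100 or more, 63.0 with the top 50%, 56.3 by center and 61.9 among all genes. For both it was 55.8 with the short window, 55.8 with 1 TSS, 42.9 with the top 50%, 45.2 by center and 50.6 among all genes. Near the troponin genes lay 20 Spin1 and 24 H3K4me3 peaks with a flank of 10 kb, 12 and 13 in gene bodies alone, and 14 and 22 with the top 50%. Spin1 covered, with 10 kb on each side and with the top 50%, 12.0% and 12.0% of Tnni2-Tnnt3, 12.4% and 8.83% of Tnni1-Tnnt2, and 19.1% and 17.3% of Tnni3-Tnnt1. H3K4me3 covered, with 10 kb on each side, scores of 100 or more and the top 50%, 20.9%, 22.9% and 19.8% of Tnni2-Tnnt3, 24.1%, 25.3% and 16.7% of Tnni1-Tnnt2, and 47.0%, 50.7% and 50.7% of Tnni3-Tnnt1. Tnni3 had no peak at its promoter under any of these settings. No paired analysis was possible because Spin1 and H3K4me3 each have 1 library and no replicate. Depth is unknown, so weak peaks may be missing from either list, and why Spin1 scores differ between members was not tested.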
